A study of Homo sapiens with 6 samples.

Results

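UHMK1, also known as KIS, is a serine/threonine kinase that carries a U2AF homology motif (UHM) at one end, the same protein-binding fold found in both U2AF subunits. It was followed here together with the genes of its known substrates and of its U2AF partners. The members were UHMK1 itself, the splicing factor gene SF1, the U2AF subunit genes U2AF2 and U2AF1, the cell cycle inhibitor gene CDKN1B (p27), the microtubule-destabilizing gene STMN1 (stathmin) and PAM, which encodes the peptide-amidating enzyme of the secretory pathway. These 7 genes were picked by name out of 27394 gene rows, and each of the 7 was above the filter on low values that left 22189 genes for testing. The set was proposed with the comparison of silenced and control cells already known, so the difference of a member between the groups is given as a description, without a test.

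The cells were PANC-1, an established human pancreatic ductal carcinoma line. In the shZDHHC20 group, ZDHHC20, a palmitoyl acyltransferase that attaches fatty acids to cysteines of other proteins, was silenced by an shRNA. The shControl group carried the control of that knockdown. Each group held 3 libraries, and both had been transfected or infected and grown in RPMI-1640 with fetal bovine serum according to the sample labels (the study's general methods name DMEM). The time after knockdown, and which ZDHHC20 shRNA was used for these libraries, are not given in the sources used here. The study speaks of biological replicates for its in vitro experiments in general, without saying so of these libraries. The p-values therefore measure the spread between these libraries, which may be technical. The study asked which transcripts depend on ZDHHC20, whose described target is YTHDF3, a protein that binds N6-methyladenosine (m6A) in mRNA.

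At the 3′ end of an intron, SF1 recognizes the branch point while the U2AF heterodimer holds the polypyrimidine tract through U2AF2 and the terminal AG through U2AF1. UHMK1 phosphorylates SF1, which promotes the joining of SF1 and U2AF2 on the RNA. It also phosphorylates p27, which favours export of p27 from the nucleus and relieves its brake on the cell cycle, and stathmin, which binds tubulin. The cytosolic tail of PAM is another of its described substrates. All of these are events on proteins, whereas the present values are levels of mRNA.

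The libraries held from 16575546 to 18441049 reads in genes, as recovered from the table. ZDHHC20, the targeted gene, lay at 2001, 2033 and 1940.4 normalized read counts in the shControl libraries and at 872, 779 and 893 in the shZDHHC20 libraries. It fell to 42.6% of the control mean (log2 difference −1.23 ± 0.06 SE, limma adjusted p = 4.36e-07), and the 3 silenced libraries lay below the 3 controls. Of the markers listed for ductal epithelial cells, KRT8, KRT18 and KRT19 had means of at least 5917 in both groups, and KRT7 was low, at 86.5 and 85.3. KRT8 and KRT18 lay at 91.7% and 89.4% of control, with groups that did not overlap, and did not pass (limma adjusted p = 0.0631 and 0.0549), while EPCAM rose from a mean of 72.4 to 525 (limma adjusted p = 6.7e-07) and CDH1 from 287 to 629 (limma adjusted p = 6.62e-06). Their part in the differences given below was not tested. Leukocyte, endothelial, acinar and islet markers, of which 7 of 15 were listed, summed to between 0 and 11.3 per list and library. The sums of the leukocyte list (0 to 3.01 in shControl, 3.76 to 7.42 in shZDHHC20) and of the acinar list (0 to 4.02 and 5.77 to 11.3) did not overlap between the groups.

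UHMK1 (ENSG00000152332, GRCh38 chr1:162497251-162529629, plus strand) had the lowest level relative to control of the 7 members as listed. Its normalized read count was 7107, 7232 and 6926 in the shControl libraries and 3752, 3356 and 3792 in the shZDHHC20 libraries. The groups did not overlap, and the gap between them was many times the spread inside either group. The means were 7088 ± 154 and 3633 ± 241 (SD, n = 3), so that 51.3% of the control level was left. On the log2 scale, with 0.1 added to each value, the difference was −0.97 with a standard error of 0.05 and a 95% interval from −1.08 to −0.85. In bulk RNA, fewer transcripts in each cell and fewer cells with the transcript cannot be told apart. The ratio of UHMK1 to SF1 within a library, which does not depend on its depth, was 1.17, 1.2 and 1.13 in shControl and 0.666, 0.635 and 0.666 in shZDHHC20.

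**Figure D1:**
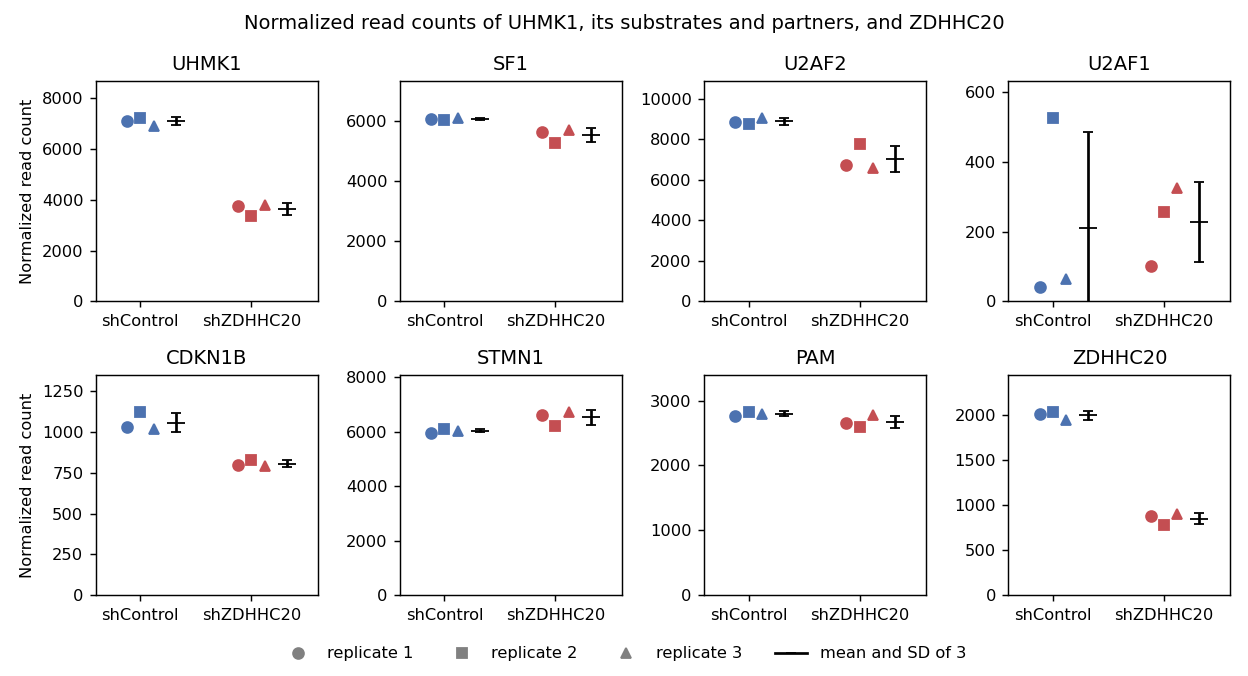
Normalized read count (vertical axes, each starting at 0) of the 7 members and of ZDHHC20 in each library; symbols mark the replicate, and the black bar gives the mean and SD of 3 libraries (for U2AF1 in shControl the bar runs below the axis). UHMK1 and ZDHHC20 fall to 51.3% and 42.6% of the control mean, while U2AF1 is spread from 42.4 to 526 within the shControl group.

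Among the 4136 genes whose mean over the 6 libraries reached 1000, 1 gene had a lower log2 difference than UHMK1, and that gene was ZDHHC20. With the limit at 100, 20 genes lay lower. Over all 22189 genes tested, in which low counts scatter widely, UHMK1 stood at percentile 6.97 of the differences. UHMK1 was chosen with this difference in view, so its place in the order is a description. The nearest protein-coding gene tested beyond its 3′ end, UAP1, starts 31877 bases away and had means of 2574 and 2547 (log2 difference −0.02, limma adjusted p = 0.904). The nearest on the other side, C1orf226, ends 110433 bases before UHMK1 starts and had means of 310.4 and 277 (log2 difference −0.16, limma adjusted p = 0.338).

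The UHMK1 mRNA carries a long 3′ untranslated region. Its longest coding transcript in GENCODE 29, UHMK1-202, has 8478 bases, of which 1257 are coding and 7063 form the 3′ untranslated region. That 3′ untranslated region is longer than or as long as those of 96.9% of the 14653 tested genes with a coding transcript (median 1329 bases), and the GC content of the transcript (37.3%, against a median of 49.6%) lies at percentile 5.15. Because YTHDF3 binds methylated adenosines, and GGACT is a common form of the sequence around them, this string was searched on the transcript strand. UHMK1-202 holds 7 matches, 1 in the coding part and 6 in the 3′ untranslated region. They are shown with 10 bases on either side because they are among the places in this mRNA where such a mark could be looked for. Other forms of the sequence were not searched. The matches below are in capitals (GRCh38, plus strand of chromosome 1, GENCODE 29 sequence, 5′ to 3′).
Site 1, coding, chr1:162500211-162500235: cattgactttGGACTtagcttcaaa
Site 2, 3′ UTR, chr1:162522553-162522577: agtaacctaaGGACTgtttcctttt
Site 3, 3′ UTR, chr1:162522609-162522633: tatgaatgcaGGACTacccccttac
Site 4, 3′ UTR, chr1:162524275-162524299: gtcaaattcaGGACTctcctttaat
Site 5, 3′ UTR, chr1:162527365-162527389: taggagcagtGGACTgtaagagaaa
Site 6, 3′ UTR, chr1:162528139-162528163: ctgcatatatGGACTcaaaagttct
Site 7, 3′ UTR, chr1:162529281-162529305: aaactaagtgGGACTatgtatgtag

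Matches to this string are common. At least 1 was present in 92.5% of the 14653 transcripts, at a median of 0.946 per kb. UHMK1 had 0.826 per kb, at percentile 41.6 of the densities of these transcripts, near the middle. The densities of the other members ran from 0.376 per kb in CDKN1B, at percentile 13.3, to 1.99 per kb in U2AF2, at percentile 90.9. SF1 had 1.15, STMN1 1.75, U2AF1 0.597 and PAM 0.92 matches per kb. Whether these densities bear on the log2 differences was not tested. The files hold no measurement of methylation or of YTHDF3 binding.

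Of the splicing substrates and partners, U2AF2 (ENSG00000063244, chr19:55654146-55674715, plus strand) was lower after silencing and SF1 (ENSG00000168066, chr11:64764606-64778786, minus strand) was slightly lower. U2AF2 lay at 8835, 8739.9 and 9062 normalized read counts in shControl and at 6723, 7745 and 6568 in shZDHHC20. Replicate 2 of the silenced cells was closer to the controls than replicates 1 and 3 were, but the groups did not overlap. The means were 8879 ± 166 and 7012 ± 639 (SD, n = 3), or 79% of control, with a log2 difference of −0.34 ± 0.06 (SE). U2AF2 overlaps an antisense transcript, AC008735.2, and counts without strand could not tell them apart, but the mean credited to that transcript was 31.8.

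SF1 lay at 6069.9, 6033 and 6111 in shControl and at 5633, 5286 and 5697 in shZDHHC20. The groups were separate, although the gap was small. The means were 6072 ± 39.2 and 5539 ± 221 (SD, n = 3), or 91.2% of control, with a log2 difference of −0.13 ± 0.05 (SE). The 2 partners that bind each other at the branch point and the polypyrimidine tract were therefore both below their control levels, U2AF2 by more than SF1.

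U2AF1 (ENSG00000160201, chr21:43092956-43107587, minus strand) gave no usable level on its own. Its normalized read count was 42.4, 526 and 65.1 in shControl and 102, 255 and 326 in shZDHHC20. The controls thus spanned more than the silenced libraries did, and the means of 211 ± 273 and 228 ± 115 (SD, n = 3) differed by far less than the spread. The fitted log2 difference was 0.85 with a 95% interval from −0.64 to 2.33, and it was 0.14 without shControl replicate 1, 1.95 without shControl replicate 2 and 0.12 with edgeR. The reason to look further is that the annotation lists a near-identical copy of the gene, U2AF1L5 (ENSG00000275895, chr21:6484623-6499261, minus strand), on the same chromosome.

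The coding sequences of the matching transcripts U2AF1-201 and U2AF1L5-201 are each 720 bases long and differ at 0 bases, and so do those of U2AF1-202 and U2AF1L5-202. Over all annotated transcripts, 89.4% of the distinct 100-base windows of U2AF1 also occur in U2AF1L5. A read from such a window fits both annotated entries, so its sequence cannot place it. Whether the listed copy is a separate gene in the genome of these cells was not tested. The sequences below are the stretch of coding bases 138 to 197, within the alternative exon of 67 bases in which these U2AF1 isoforms differ, and they are shown because they tell isoforms apart but not the gene from its copy. Capitals mark the 23 bases that differ between the isoforms (GRCh38, minus strand of chromosome 21, GENCODE 29 sequence, 5′ to 3′).
U2AF1-201, chr21:43100455-43100514: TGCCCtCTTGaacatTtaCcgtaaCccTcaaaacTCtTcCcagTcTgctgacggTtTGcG
U2AF1L5-201, chr21:6492133-6492192: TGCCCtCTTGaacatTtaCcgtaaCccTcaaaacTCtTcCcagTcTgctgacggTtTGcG
U2AF1-202, chr21:43101368-43101427: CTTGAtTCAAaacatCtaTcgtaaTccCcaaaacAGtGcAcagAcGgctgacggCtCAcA
U2AF1L5-202, chr21:6493046-6493105: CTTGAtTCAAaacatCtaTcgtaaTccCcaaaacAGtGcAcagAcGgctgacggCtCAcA

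U2AF1L5 was credited with 727, 25.1 and 377 normalized read counts in shControl and with 23.3, 29.1 and 17.3 in shZDHHC20. Where U2AF1 was low in a control library, its copy was high. The share of the pair's count that went to U2AF1 was 5.52%, 95.4% and 14.7% in the controls and 81.4%, 89.8% and 95% in the silenced libraries. Summed over both genes, the count was 769, 551 and 443 in shControl and 125, 285 and 344 in shZDHHC20, so that the groups no longer overlapped. The sum had means of 588 ± 166 and 251 ± 113 (SD, n = 3), or 42.7% of control, and a log2 difference of −1.31, against 0.85 for U2AF1 alone. The direction given for U2AF1 therefore depended on whether its copy was added, and the levels of neither gene can be taken at face value. How reads that fit both entries were counted is not known, so the sum need not hold all reads of the pair. The sum was formed after the values had been seen, and even the sum was 2.75-fold apart between the highest and lowest silenced library.

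Of the 3 substrates outside splicing, CDKN1B was lower, STMN1 was slightly higher and PAM overlapped between the groups. CDKN1B (ENSG00000111276, chr12:12715058-12722371, plus strand) encodes p27, which binds and inhibits cyclin-dependent kinases. Its normalized read count was 1031, 1126 and 1017 in shControl and 800.3, 830.2 and 791 in shZDHHC20. Every silenced library lay below every control. The means were 1058 ± 59.2 and 807 ± 20.5 (SD, n = 3), or 76.3% of control, with a log2 difference of −0.39 ± 0.07 (SE).

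STMN1 (ENSG00000117632, chr1:25884181-25906991, minus strand), whose product binds tubulin dimers, lay at 5967, 6089 and 6042 in shControl and at 6627, 6196 and 6738 in shZDHHC20. The silenced libraries were all above the controls, replicate 2 by the least. The pseudogene STMN1P1, which may share reads with it, was credited with at most 4.24 in any library. The means were 6033 ± 61.8 and 6521 ± 286 (SD, n = 3), or 108% of control, with a log2 difference of 0.11 ± 0.05 (SE). PAM (ENSG00000145730, chr5:102753981-103031105, plus strand) lay at 2756, 2831 and 2799 in shControl and at 2654, 2596 and 2776 in shZDHHC20. Its groups overlapped, because the highest silenced library was above the lowest control. The means were 2795 ± 38 and 2675 ± 92.2 (SD, n = 3), or 95.7% of control, with a log2 difference of −0.06 and a 95% interval from −0.17 to 0.04.

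**Figure D2:**
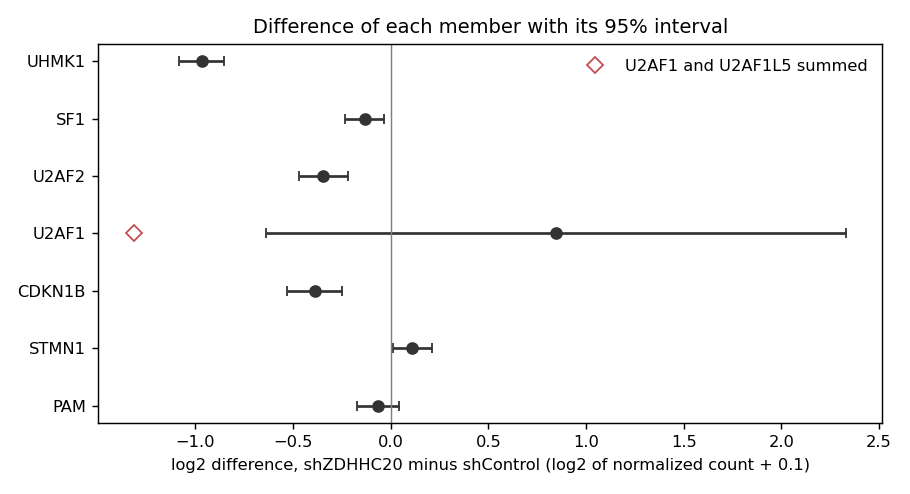
Log2 difference (shZDHHC20 minus shControl, with 0.1 added to each normalized read count) of each member; filled points are the fitted values with their 95% intervals, and the open diamond is the sum of U2AF1 and U2AF1L5. UHMK1 lies at −0.97, the other members except U2AF1 lie between −0.39 and 0.11, and U2AF1 moves from 0.85 to −1.31 when its copy is added.

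The fitted difference was below 0 for 5 of the 7 members and above 0 for STMN1 and U2AF1, with a median of −0.13, where the median of all genes tested was 0.01. In the limma fit across all genes, 3 members (UHMK1, U2AF2 and CDKN1B) had an adjusted p under 0.05, each of them lower, while 11.5% of all genes tested passed that threshold (6.84% lower and 4.61% higher). The groups were fully separate for 5 of the 7 members, against 28.6% of all genes tested. As the members had been selected on these libraries, nothing is read from either count.

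The members also differed in how closely replicates agreed. The SD of the log2 values within shControl ran from 0.01 for SF1 to 0.08 for CDKN1B, apart from U2AF1 at 1.94. Within shZDHHC20 it ran from 0.04 for CDKN1B to 0.13 for U2AF2, apart from U2AF1 at 0.89. For 5 of these 6 members the spread was wider in the silenced cells than in the controls, and CDKN1B was the exception. For PAM, replicate 3 of shZDHHC20 stood apart, at 2776 against 2654 and 2596. For UHMK1, U2AF2, CDKN1B, STMN1 and SF1, replicate 2 of shZDHHC20 stood apart from replicates 1 and 3. Relative to the mean of replicates 1 and 3 on the log2 scale, replicate 2 was higher by 0.22 for U2AF2 and by 0.06 for CDKN1B. It was different by −0.17 for UHMK1, −0.11 for STMN1, −0.1 for SF1 and −0.06 for PAM. Without that library, the log2 difference of UHMK1 was −0.91 and that of U2AF2 was −0.42.

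Levels of different genes can be compared only per length. Divided by the merged exon length in kb, the mean normalized read count in shControl was 2158 for U2AF2, 1017 for SF1, 964 for STMN1, 767 for UHMK1, 376 for CDKN1B and 316 for PAM. U2AF1 had 19. Summed with its copy, before division by length, the mean in shControl was 588, where the merged exons of U2AF1 have 11112 bases. PAM had a mean of 2795 over 8846 bases. How reads that fit both entries were counted is not known, and the cause of the low value was not tested. Neighbours in the order of levels per kb did not overlap over the 3 control libraries. UHMK1 was thus among the well expressed genes in these cells, at percentile 95.9 of all genes tested, and U2AF2 was at percentile 98.8. In shZDHHC20 the level per kb of UHMK1 was 393 ± 26 (SD, n = 3), still above PAM at 302 and CDKN1B at 287, and those of PAM and CDKN1B overlapped (293 to 314 and 281 to 295). STMN1, at 1041, stood above SF1, at 927, in the silenced cells. The order of close members rests on the length used. With the length of the longest transcript, STMN1 was above SF1 in both groups (2047 and 1750 in shControl), and PAM was above UHMK1 in the silenced cells (493 and 429).

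The 5 genes whose profile over the 6 libraries lay nearest to that of UHMK1 were searched among 10907 other genes with a mean of at least 100, by the root mean square distance of the log2 values after centring on the shControl mean. They were FLVCR2, a membrane transporter gene (distance 0.05), HPRT1, of purine salvage (0.08), RAB29, a small GTPase gene (0.08), IL6ST, the shared receptor subunit of the interleukin-6 family (0.08), and SLC39A10, a zinc importer gene (0.09). IL6ST lay at 6035, 6192 and 6386 normalized read counts in shControl and at 3622, 2922 and 3559.7 in shZDHHC20. The silenced libraries of HPRT1 lay close together, at 954, 914 and 928. In each of the 5 genes, as in UHMK1, replicate 2 was the lowest of the silenced libraries. This follows in part from the choice, as the genes were picked for likeness over these same libraries. When genes with a mean of at least 1000 were searched, 3 of the 5 were found again.

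**Figure D3:**
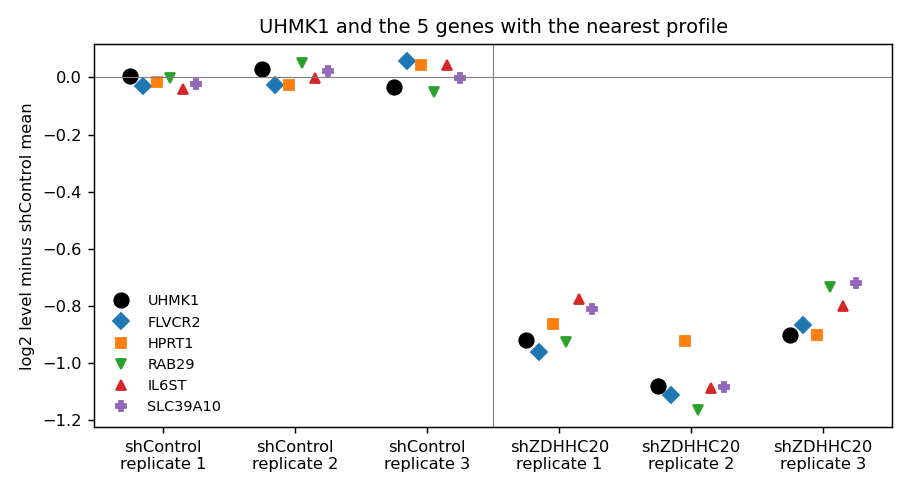
Log2 level (normalized read count + 0.1) minus the mean of the shControl libraries, for UHMK1 (black circles) and its 5 nearest genes in each library. The silenced libraries of UHMK1 lie between −1.08 and −0.9, lowest in replicate 2, and those of the other genes between −1.16 and −0.72.

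Genes around UHMK1 and its substrates were taken from 6 lists written from general knowledge of these pathways, with the members left out. Of 94 listed genes tested, 15 were called at a limma adjusted p under 0.05, of which 8 rose and 7 fell. Of all genes tested 11.5% were called, 4.61% higher and 6.84% lower, and the counts of each list below stand beside these shares. The count of 15 depended on shZDHHC20 replicate 2: without that library 39 were called, 24 higher and 15 lower. Without the mean-variance trend in the fit, 4 were called. The median log2 difference over the 94 genes was 0.04, close to that of all genes.

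The UHM domain family holds other proteins with the fold that gives UHMK1 its name. None of its 7 genes passed (limma; 0 of 7 also at an unadjusted p under 0.05, with edgeR and with DESeq2), and its median log2 difference was 0.05. PUF60, which assists U2AF at the 3′ splice site, lay at −0.11 (limma adjusted p = 0.306), and RBM39, an alternative splicing regulator, at 0.05 (limma adjusted p = 0.55). Leaving out shZDHHC20 replicate 2 gave 1 call in this family. The differences of the 7 genes lay between −0.17 and 0.14, against −0.97 for UHMK1.

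Of 20 genes of the U2 snRNP and its helpers at the 3′ splice site, 3 rose and none fell, and the median log2 difference was 0.01. RBM5, a regulator of splice site pairing, rose from 1203, 1279.6 and 1218 normalized read counts to 1622, 1621 and 1591 (log2 difference 0.39 ± 0.06 SE, limma adjusted p = 0.000598). PHF5A and SF3B2, subunits of the SF3b complex that clamps the branch point, rose by 0.47 (limma adjusted p = 0.00653) and 0.22 (limma adjusted p = 0.0072). The other listed subunits of that complex lay on both sides of 0 and did not pass (limma adjusted p from 0.059 to 0.993). SF3B1 lay at 0.15, SF3B6 at 0.002, SF3B5 at −0.08, SF3B3 at −0.16 and SF3B4 at −0.17. SF1 and U2AF2, which bind the same intron end before the U2 snRNP does, lay at −0.13 and −0.34 in the same fit. SF3B2 lost its call when any 1 of the shControl libraries or shZDHHC20 replicate 1 was left out, and PHF5A without shControl replicate 1 or 3. The count of this list was 6 with DESeq2, 5 with edgeR, 9 (8 higher and 1 lower) without shZDHHC20 replicate 2, and 1 without shControl replicate 1 or without shControl replicate 3. It was 0 in limma without the mean-variance trend, where 9 genes had an unadjusted p under 0.05 with the trend.

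Of 15 other kinases that act on splicing factors, 1 rose and 1 fell, and the median log2 difference was 0.1. PRPF4B, a kinase of spliceosome assembly, rose from a mean of 2501 to 3020.4 (log2 difference 0.27 ± 0.06 SE, limma adjusted p = 0.00937). SRPK1, a kinase of SR proteins, fell from 1903 to 1648 (−0.21 ± 0.06 SE, limma adjusted p = 0.0383). Neither passed when 1 of the shControl libraries or shZDHHC20 replicate 1 was left out, and 7 of the 15 were called without shZDHHC20 replicate 2. Without the mean-variance trend in limma 0 were called, against 4 with edgeR, 3 with DESeq2 and 7 at an unadjusted p under 0.05 with the trend. UHMK1 thus had the lowest log2 difference of the splicing kinases measured, a description since it was chosen for it.

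The p27 network comprises cyclins, cyclin-dependent kinases, their inhibitors, and factors that transcribe, export or degrade p27. Of 24 genes tested, 3 fell and none rose, with a median log2 difference of −0.09. CCND1, encoding cyclin D1, a binding partner of p27, fell from 9259.9, 9233 and 9380.5 to 6824, 6457 and 6855 (log2 difference −0.47 ± 0.04 SE, limma adjusted p = 2.06e-05). SKP2, the F-box protein that marks p27 for degradation, fell from a mean of 386 to 281 (−0.46 ± 0.09 SE, limma adjusted p = 0.00439). FOXO3, a transcription factor that activates CDKN1B, fell from 2339 to 2058 (−0.18 ± 0.05 SE, limma adjusted p = 0.032), but its call was lost when any 1 of the shControl libraries or shZDHHC20 replicate 1 was left out. CDKN1B itself, at −0.39, lay between FOXO3 and SKP2 in this order. CDK2, the kinase p27 inhibits, lay at −0.21 and did not pass (limma adjusted p = 0.0726). Of 6 listed proliferation genes, MCM2 fell (from 1073 to 848, limma adjusted p = 0.00446) and the other 5, MKI67 and PCNA among them, did not pass. Without shZDHHC20 replicate 2, 11 genes of the p27 network were called, 8 lower and 3 higher, and 1 was called without the mean-variance trend.

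Among stathmins and tubulins, 3 of 11 genes rose and none fell, with a median log2 difference of 0.09. STMN3, a relative of stathmin, rose from 594, 658 and 639 to 1118, 1349.5 and 1013 (log2 difference 0.87 ± 0.09 SE, limma adjusted p = 6.08e-05), while STMN1 itself lay at 0.11. Of the α-tubulin genes, TUBA1A rose from a mean of 4553 to 6141 (0.43 ± 0.04 SE, limma adjusted p = 3e-05) and TUBA4A rose from 101 to 186 (0.9 ± 0.17 SE, limma adjusted p = 0.00317). Tubulin genes are alike in sequence, so their reads may be shared, and TUBA1B lay at 0.01 (limma adjusted p = 0.938). Without shZDHHC20 replicate 2, 5 genes of this list were called, 4 higher and 1 lower, and 1 was called without the mean-variance trend.

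Of 17 tested genes of peptide processing and of the partners of PAM, 3 fell and 1 rose, with a median log2 difference of 0.04. TRIO, a relative of the PAM-binding exchange factor kalirin, fell from 9614, 9634 and 9798 to 7298, 7123 and 7498 (log2 difference −0.41 ± 0.04 SE, limma adjusted p = 4.58e-05). SLC23A2, an importer of vitamin C, fell by 0.53 on the log2 scale (limma adjusted p = 8.96e-05) and SLC31A1, the plasma membrane copper importer, by 0.42 (limma adjusted p = 0.00225). PAM uses both copper and vitamin C, and its own mRNA lay at −0.06. Of the same list, ATP7A, at 0.04 (limma adjusted p = 0.785), and CYB561, at 0.06 (limma adjusted p = 0.672), did not pass. Whether the supply of either to PAM changed was not tested. SCG2, a secretory granule protein gene, rose from a mean of 98.5 to 154 (0.65 ± 0.13 SE, limma adjusted p = 0.0057). CHGB, another such gene of the list, went from 138 to 110 (−0.33) and did not pass (limma adjusted p = 0.124). The neuroendocrine convertases PCSK1 and PCSK2 had means of at most 2.66. Without the mean-variance trend, 2 genes of this list were called.

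**Figure D4:**
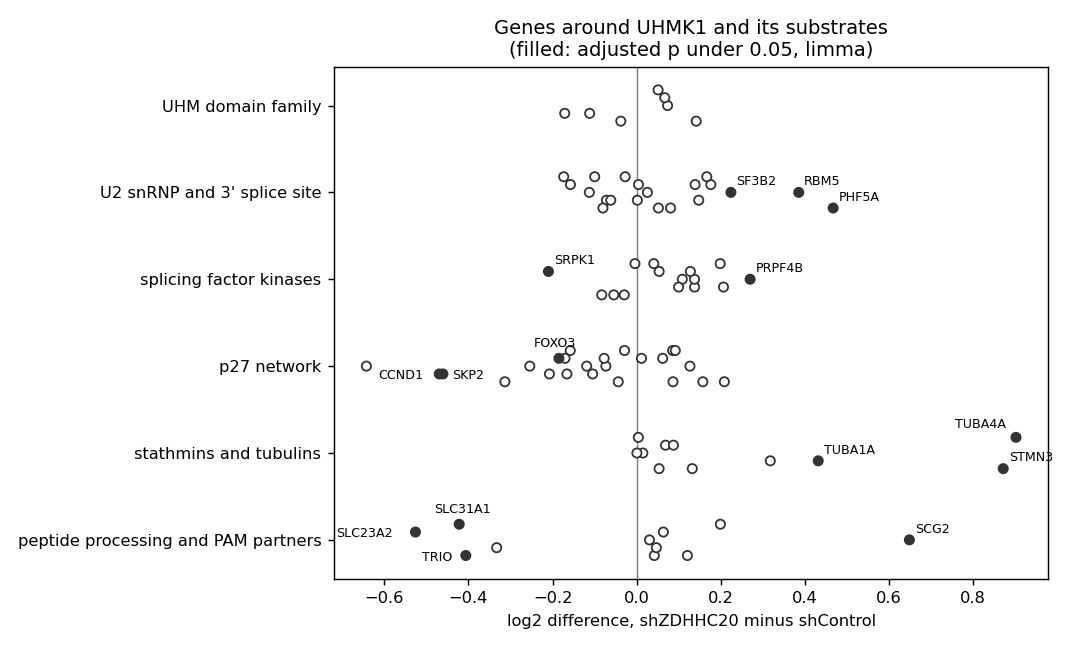
Log2 difference (shZDHHC20 minus shControl) of the genes of 6 lists; each point is 1 gene with a mean of at least 10 (88 of the 94 tested), filled where the limma adjusted p is under 0.05. Calls lie on both sides of 0 for the kinases and the PAM partners, above 0 for the U2 snRNP and the tubulins, and below 0 for the p27 network. Of all genes tested, 11.5% passed the same threshold. Without shZDHHC20 replicate 2, calls lay on both sides for the U2 snRNP (8 higher, 1 lower), the tubulins (4 higher, 1 lower) and the p27 network (3 higher, 8 lower).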

How the data were processed

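RNA-seq libraries of total RNA from PANC-1 cells (3 shControl, 3 shZDHHC20) had been made with a directional kit. The authors deposited 1 table of normalized signal values per gene and library. Its columns are named siZDHHC20 and NC, not shZDHHC20 and shControl as the samples are, and were matched to them by group and replicate number. It is named as FPKM, but 100% of the values above 0 were whole multiples (tolerance 0.01) of the smallest value of their library, with no division by gene length (this smallest value was 1 to 1.01 in shControl, so close to a whole number that recovered reads are less certain there, and 0.939 to 1.06 in shZDHHC20), and the median-ratio size factors computed from the table were equal in all libraries; the values are therefore counts divided by a size factor and are called normalized read counts. The aligner, the counting tool and its use of strand are not given in the sources used here. The submitters' processing notes name hg19. All 27394 identifiers are in GENCODE 29 (GRCh38), which gave positions, lengths and sequences; 22002 were named by the reference table and the rest by GENCODE.

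Values were tested as log2(value + 0.1) with limma 3.58.1 in R 4.3.3 (mean of at least 1 over the libraries, mean-variance trend, two-sided, Benjamini-Hochberg adjustment over all genes tested). edgeR 4.0.16 and DESeq2 1.42.0 on the reads recovered from the whole multiples were alternatives and called 2739 and 2646 genes, against 2541. On simulated data made from these libraries for the same comparison (27394 genes, of which 22314 passed the filter), limma recovered 178 of 200 changed genes and called 4 unchanged ones. The simulation gave every gene the same relative spread, changed only genes that were not low, and made no library stand apart. It therefore does not measure the error of the calls in the real libraries. The members and lists were chosen with earlier results of these data known. Named were the members, ZDHHC20, up to 5 called genes per list by adjusted p, and the 5 genes most like UHMK1; U2AF1L5, the neighbours of UHMK1 and listed genes named although they did not pass were chosen after their values were seen.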

Additional observations from a re-analysis of the deposited data

How the results depend on the processing

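The log2 difference of UHMK1 lay between −1 and −0.91 over the 15 alternatives, and that of each other member kept its sign in all 15, although that of U2AF1 ran from 0.11 (DESeq2) to 1.95 (without shControl replicate 2). It reversed to −1.31 in the alternative added after seeing the data, in which U2AF1 and U2AF1L5 were summed. The number of genes called, 2541, was 351 without the mean-variance trend and from 1036 to 4268 when 1 library was left out (4268 without shZDHHC20 replicate 2). The 15 calls in the pathway lists became 4 without the trend and from 10 to 39 when 1 library was left out (10 without shControl replicate 1 or 3, 39 without shZDHHC20 replicate 2), and the cause was not tested. With quantile normalization 20 list genes were called, 13 higher and 7 lower, against 8 and 7. Scaling by median ratios changed no call, since the values were already on that scale. Of the 5 genes most like UHMK1, 3 were found again among genes with a mean of at least 1000. Replicate numbers did not pair the libraries (correlations of deviations −0.0948, −0.156 and −0.0771); with the replicate block, 1942 genes and 13 list genes were called, and SRPK1 and FOXO3 lost their calls. Each member apart from U2AF1 had at least 791 normalized read counts in every library. U2AF1 is limited by the sequence it shares with its copy, and the sum of both was still 2.75-fold apart within shZDHHC20.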

Other observations

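The block of chromosome 21 that holds U2AF1L5 also holds listed copies of 2 other genes, looked at after U2AF1. The counts of CBS and of SIK1B were uneven between replicates. CBS, which encodes cystathionine beta-synthase, lay at 448, 1013 and 940.1 normalized read counts in shControl and at 672, 575 and 549 in shZDHHC20, while its copy CBSL stayed between 16.4 and 25 in all 6 libraries. SIK1B, the copy of the kinase gene SIK1, lay at 5.05, 5.02 and 2 in shControl and at 8.48, 264 and 56.8 in shZDHHC20. SIK1 itself lay at 380, 423 and 398 in shControl and at 511, 701 and 498 in shZDHHC20. It was thus highest in the library where its copy was highest, unlike U2AF1 and U2AF1L5 in the controls. The shControl replicate in which U2AF1L5 took the least of its pair's count (replicate 2) was not the one in which CBS was lowest (replicate 1).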
